A study of Mus musculus with 8 samples.

Results

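The miR-30 family was followed across small RNA libraries of mouse sperm. Its members were the 8 rows of the deposited table with the class miRNA and the mature names mmu-miR-30a-5p, mmu-miR-30a-3p, mmu-miR-30b-5p, mmu-miR-30c-5p, mmu-miR-30c-2-3p, mmu-miR-30d-5p, mmu-miR-30e-5p and mmu-miR-30e-3p, out of 952 miRNA rows and 1010917 rows in all. The species prefix is left out from here on. The libraries came from spermatozoa of C57BL/6J mice, 4 labelled Control-Cessation and 4 labelled EtOH-Cessation (ethanol). The title of the series speaks of 1 month of cessation. The question was whether the family differed from controls in animals that no longer received alcohol. Every sample is labelled mature sperm, while the design text speaks of the caput epididymis, and the labels give neither age, dose nor whether a library is 1 animal. The p-values therefore measure only the spread between these libraries, which may be technical.

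A microRNA is cut from a hairpin precursor as a pair of arms, named 5p and 3p by their place in the hairpin. The arm that is kept in an Argonaute protein pairs with messenger RNAs mainly through its seed, bases 2 to 8, and lowers their output. In the miR-30 family the 5p arms share a seed and are the usual guides, and their reported targets include Snai1, a driver of epithelial to mesenchymal transition, and Becn1, an autophagy gene. The family is abundant in epithelia, and miR-30a and miR-30c are among the sperm miRNAs that earlier work on paternal stress in mice reported as altered.

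The sequences are shown because 3 seeds divide the listed members, and because members that differ by a single base are hard to keep apart in short reads. RefSeq sequences (GRCm38.p6) were found for 6 of the 8 members. Capitals mark the seed. The guide arms were:
miR-30a-5p: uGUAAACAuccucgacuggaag
miR-30e-5p: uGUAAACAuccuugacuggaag
miR-30c-5p: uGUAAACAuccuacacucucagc
The opposite arms, which fall into a pair of seeds, were:
miR-30a-3p: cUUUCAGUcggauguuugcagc
miR-30e-3p: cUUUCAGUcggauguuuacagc
miR-30c-2-3p: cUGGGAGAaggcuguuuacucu

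Counting positions from 1 at the 5′ end, miR-30e-5p differed from miR-30a-5p only by C13U, and miR-30e-3p from miR-30a-3p only by G18A. miR-30c-5p shared its leading 12 bases with miR-30a-5p and had 5 differences over the 22 positions compared. The rule the authors used for reads that match several names was not given in the sources used here. The split between miR-30a and miR-30e is therefore uncertain. One mature sequence, miR-30c-5p, comes from separate hairpins, Mir30c-2 and Mir30c-1, and the table gives it 1 row.

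In GRCm38.p6, miR-30a-5p lies at chr1:23272274-23272295 and miR-30a-3p at chr1:23272315-23272336, both on the plus strand, in a hairpin that overlaps no other annotated gene (GENCODE release M21). The Mir30c-2 hairpin lies on the same strand at chr1:23291701-23291784, within an exon of the long noncoding RNA Gm27028. Mir30c-1 (chr4:120769534-120769622) and Mir30e (chr4:120772606-120772697) lie on the minus strand within introns of Nfyc, which encodes a subunit of the NF-Y transcription factor. A further miRNA gene, Mir30f, is annotated on the opposite strand over Mir30e, and it is not among the listed members.

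The libraries held 3116421 to 6805989 counts. miRNA rows took 16.8% to 27.7% of the counts in controls and 6.96% to 10.2% in the EtOH libraries. Exons of 7 sperm and late germ cell genes, among them the protamines Prm1 and Prm2, all had counts. They summed to 377 to 455 CPM (counts-per-million of the library total) in controls and 232 to 331 in the EtOH libraries. The sperm miRNA miR-34c-5p had 4498 to 6612 CPM in controls and 1794 to 4836 in the EtOH libraries, so the groups overlapped. Exons of 6 genes of the epididymal epithelium, with all 6 detected, summed to 355 to 487 CPM in controls and 701 to 17620 in the EtOH libraries, the highest in EtOH replicate 2. The miRNAs of smooth muscle, striated muscle and red blood cells summed to 1653 to 33400, 313 to 3374 and 56.7 to 695 CPM in controls, and 1560 to 3683, 157 to 400 and 29.8 to 68.0 in the EtOH libraries. All 3 smooth muscle, 2 of 3 striated muscle and all 3 red blood cell miRNAs had counts, and miR-206-3p had none. Leukocyte miRNAs, with counts for 4 of 5 and none for miR-142a-3p, summed to 214 to 312 CPM in controls and 26.0 to 139 in the EtOH libraries. Epithelial miRNAs, with counts for 4 of 5 and none for miR-200c-3p, summed to 1153 to 4357 CPM and 1077 to 2889. Zeros in some libraries occurred in 3 of the 6 epididymal genes, 1 smooth muscle miRNA and 1 red blood cell miRNA. They also occurred among the counted leukocyte and epithelial miRNAs, so the sums of these lists carry zeros. The part of these cell types in the miR-30 values was not tested. In such bulk libraries, fewer cells of a type and less RNA per cell cannot be told apart.

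miR-30c-5p was the leading member in each of the 8 libraries, and its values were lower in the EtOH libraries. Controls 1 to 4 had 6119, 7926, 5493 and 4798 CPM (from here on TMM-scaled library sizes), from 23201, 25884, 19547 and 19543 counts. EtOH replicates 1 to 4 had 1873, 1905, 2531 and 2003 CPM, from 12002, 6289, 16710 and 10381 counts. The groups did not overlap, and the control mean was 2.93 times the EtOH mean (6084 ± 1341 against 2078 ± 307 CPM, SD, n = 4 each). The log2 fold change was -1.55 (SE 0.34), and with an edgeR quasi-likelihood adjusted p of 0.0525 over all 10234 features it missed the threshold of 0.05. Among miRNA rows it ranked 6 to 12 by count in controls and 8 to 13 in the EtOH libraries.

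miR-30b-5p, which shares the 5p seed, had the second complete set of values among the guide arms. Its controls had 842, 1159, 621 and 878 CPM, and its EtOH libraries 205, 278, 487 and 378 CPM. The highest EtOH library lay below the lowest control. The control mean of 875 ± 221 CPM stood against 337 ± 123 in the EtOH libraries (SD, n = 4 each), with a log2 fold change of -1.38 (SE 0.39, edgeR adjusted p = 0.0545).

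The EtOH libraries carry names of 2 forms, M (replicates 1 and 2) and EM (replicates 3 and 4), whose meaning the labels do not give. Against all controls, the log2 fold changes of miR-30c-5p and miR-30b-5p were -1.86 and -2.05 with the M libraries alone (edgeR adjusted p = 0.0161 and 0.0122), a fit that called 2.69% of all features and 38.8% of miRNA features lower. With the EM libraries alone they were -1.27 and -0.88 (edgeR adjusted p = 0.153 and 0.334). The median of the miRNA features was -1.89 with the M libraries and -1.31 with the EM libraries. The difference between the name forms was not tested.

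The other 3 guide arms were listed at 0 in some libraries and had at least 153 CPM in others. miR-30a-5p was at 0 in controls 1 and 4 and EtOH replicate 3. There, 2698, 2953 and 1954 counts of miR-30a-5p are predicted by the lowest other library above 0 of the same group. Its remaining libraries had 1553 and 756 CPM in controls 2 and 3, and 372, 463 and 316 CPM in EtOH replicates 1, 2 and 4. The opposite arm of the same hairpin, miR-30a-3p, was counted in each library where miR-30a-5p was at 0, with 141, 140 and 201 counts.

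miR-30d-5p was at 0 in 5 libraries, controls 1, 2 and 4 and EtOH replicates 1 and 3. It had 1966 CPM in control 3, and 790 and 746 CPM in EtOH replicates 2 and 4. In those 3 libraries it was the second most abundant member, and with a single control above 0 its group difference has no spread on the control side. It did not pass the filter on low counts, which asks for 4 libraries.

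miR-30e-5p was at 0 in control 4 alone, where 1778 or more counts are predicted from the other controls. Controls 1 to 3 had 428, 1227 and 458 CPM, and the EtOH libraries 172, 153, 462 and 260 CPM. The groups overlapped, since EtOH replicate 3 lay above controls 1 and 3.

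No other single row of the family or the table mirrored these zeros. The precursor rows mir-30a to mir-30e, listed both as miRNA and as hairpin, had at most 22 counts in any library, and the unlisted arms miR-30b-3p, miR-30c-1-3p and miR-30d-3p at most 5. Of the 1010917 rows, 0 held at least 50% of the predicted counts in each library at 0 while staying under 10% of that level elsewhere, for any of the 4 members concerned. This search cannot find counts that were added to a row with counts in the other libraries, or split over several rows. A 0 is called an isolated zero here if at least 3 libraries were above 0 and at least 50 counts were predicted. Both the median of the libraries above 0 and the highest other library of the group had to predict this number. Isolated zeros affected 31 of the 952 miRNA rows, 2 to 10 per library, and 4 of the 8 miR-30 members. A count of 0 allows up to 3 counts, or 0.42 to 0.84 CPM in these libraries, for counting error only. What produced the zeros was not tested.

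**Figure D1:**
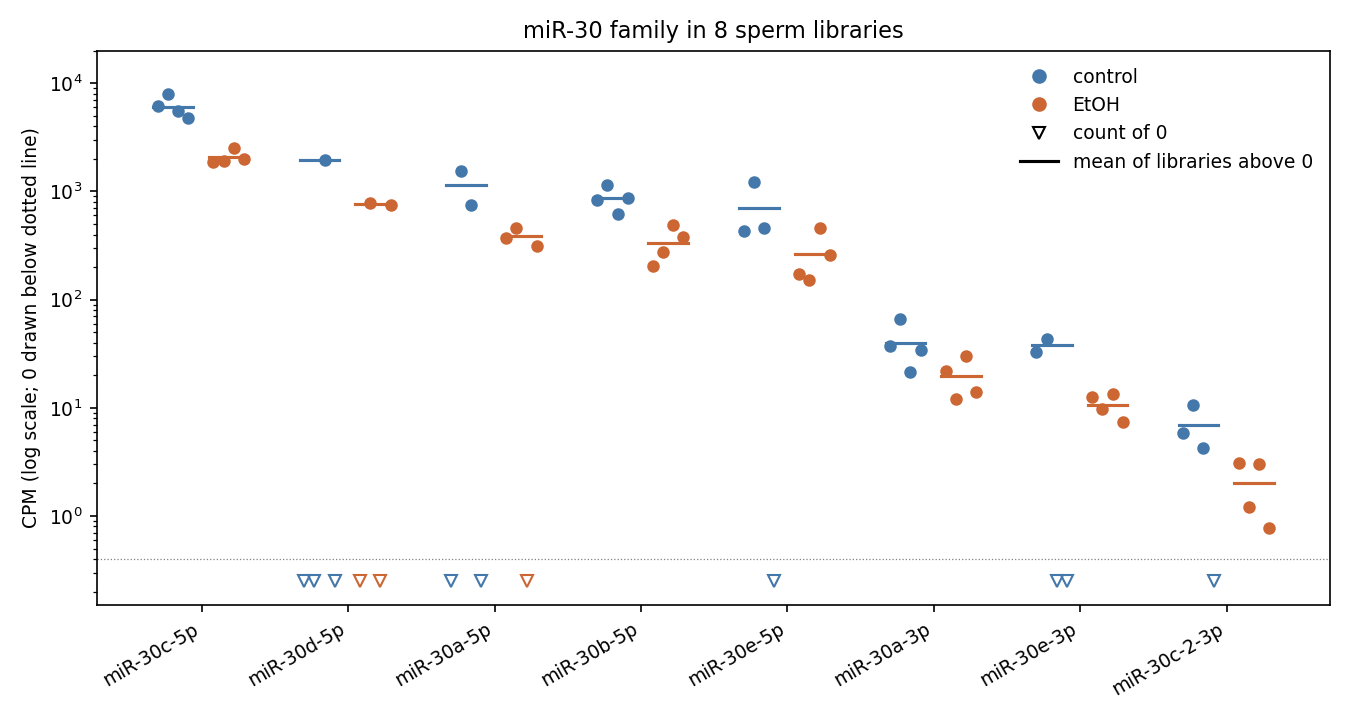
CPM (log scale) of each miR-30 member in the 4 control and 4 EtOH libraries. Points are libraries, lines are means over libraries above 0, and open triangles under the dotted line are counts of 0. miR-30c-5p lies at 4798 to 7926 CPM in controls and 1873 to 2531 in the EtOH libraries, and zeros occur in 5 libraries for miR-30d-5p and 3 for miR-30a-5p.

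The 3p arms were scarce. miR-30a-3p had 37.2, 65.5, 21.6 and 34.4 CPM in controls and 22, 12.1, 30.4 and 13.9 CPM in the EtOH libraries, so the groups overlapped (log2 fold change -1.01, SE 0.45, edgeR adjusted p = 0.171). miR-30e-3p had 32.7 and 42.9 CPM in controls 1 and 2, was listed at 0 in controls 3 and 4, and had 12.5, 9.69, 13.3 and 7.33 CPM in the EtOH libraries. Control 3 is the reverse of the miR-30a case, since miR-30e-5p had 1628 counts there. miR-30c-2-3p, the rarest, had 22, 35, 15 and 0 counts in controls and 20, 4, 20 and 4 in the EtOH libraries. Its log2 fold change was -1.27 (SE 0.77, edgeR adjusted p = 0.311), and -1.75 (SE 0.57, edgeR adjusted p = 0.119) without control replicate 4, its library at 0.

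In the test over all features, 0 of the 7 members tested passed in either direction, where 0.137% of all features were called lower and 0.0489% higher. At an unadjusted p below 0.05, miR-30c-5p, miR-30b-5p and miR-30a-3p were lower, which is 3 of 7 against 9.15% of all features and 66.7% of the 228 miRNA features. DESeq2 called miR-30c-5p and miR-30b-5p lower (adjusted p = 3.92e-05 and 0.00688), where it called 3.95% of all features and 51.3% of miRNA features. limma voom called the same 2 members (adjusted p = 0.0132 and 0.0233), against 2.34% and 32.5%. Without EtOH replicate 3 the edgeR test called both, along with 3.63% of all features and 58.2% of miRNA features. Without EtOH replicate 2 it called miR-30c-5p alone (adjusted p = 0.0331), along with 1.83% and 26.9%. As listed, the groups did not overlap for 2 of 8 members, and this held for 48.7% of miRNA features and 7.81% of all features.

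With the isolated zeros left out, all 8 members had fitted values below 0. Most of the 228 miRNA features also had values below 0 in the fit as listed. The fold changes of miR-30a-5p, miR-30e-5p and miR-30e-3p as listed were -1.004 (SE 1.84), -1.01 (SE 1.14) and -0.81 (SE 1.12). Refitted without the libraries at 0 they were -1.88 (SE 0.72), -1.47 (SE 0.58) and -1.76 (SE 0.62), with edgeR adjusted p of 0.146, 0.156 and 0.248. miR-30d-5p, fitted on 1 control and 2 EtOH libraries with the control assumed to vary like the EtOH libraries, had -1.92 (SE 2.18, edgeR adjusted p = 0.736). The median over the members moved from -1.01 for the 7 tested as listed to -1.51 for all 8. The median of the 228 miRNA features as listed was -1.56 and that of all features -0.09. In the fit without features with isolated zeros, the median was -1.58 for 198 miRNA features and -1.32 for the 4 members among them. By either fit, the members' median lay nearer to that of the miRNAs than to that of all features.

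**Figure D2:**
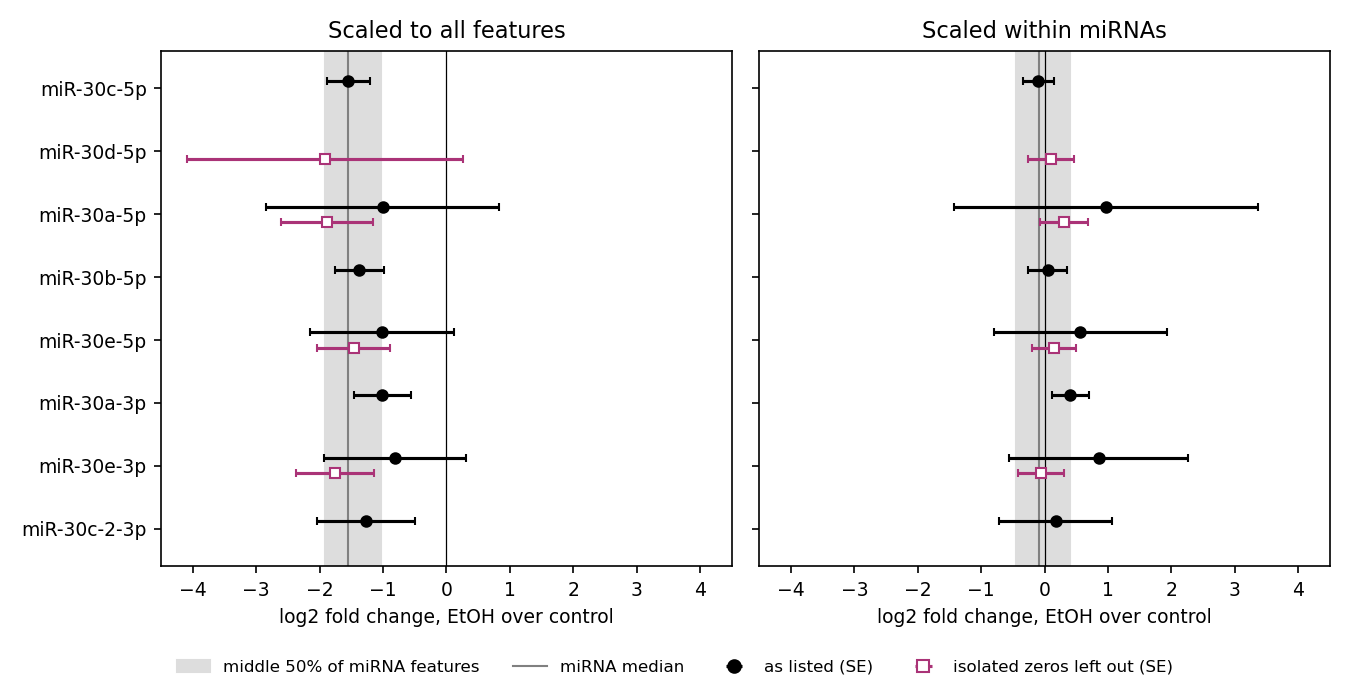
Log2 fold change, EtOH over control, of each member with its SE, scaled to all features (left) and within miRNAs (right). Filled circles are fits as listed and open squares fits without isolated zeros. The grey band holds the middle 50% of miRNA features and the grey line is their median, -1.56 on the left and -0.09 on the right.

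Relative to the other miRNAs, no member differed beyond the spread between libraries. In a fit restricted to 241 miRNA features, 0 of 7 tested members passed in either direction, where 0% of features were called lower and 0.415% higher. The log2 fold changes were -0.10 (SE 0.24) for miR-30c-5p, 0.05 (SE 0.30) for miR-30b-5p and 0.41 (SE 0.29) for miR-30a-3p, with edgeR adjusted p of 0.97, 0.981 and 0.701. As listed, miR-30a-5p, miR-30e-3p and miR-30e-5p had 0.97 (SE 2.40), 0.86 (SE 1.41) and 0.57 (SE 1.36), and the median of the 7 members was 0.41. With isolated zeros left out, the 8 members lay between -0.10 and 0.41 with a median of 0.12. All miRNA features had a median of -0.09.

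Shares of the miRNA pool are a further measure that does not depend on other RNA classes. Over miRNA rows without isolated zeros, miR-30c-5p held 3.55%, 2.41%, 3.41% and 3.14% in controls and 2.38%, 3.73%, 3.004% and 3.26% in the EtOH libraries (3.13% ± 0.512 and 3.09% ± 0.561, SD, n = 4 each). miR-30b-5p held 0.450% ± 0.101 and 0.4995% ± 0.162 (SD, n = 4 each), with EtOH replicate 1 lowest at 0.261% and EtOH replicate 4 highest at 0.615%. For both, the groups overlapped throughout. miR-30a-3p held 0.0194% ± 0.00408 and 0.0276% ± 0.00614, and its lowest EtOH library, at 0.0226%, lay just above its highest control, at 0.0225%. Over all miRNA rows those groups overlapped, and how many other miRNAs were apart in this way was not counted. The 8 members together held 2.90% to 4.30% of all miRNA counts in controls and 2.65% to 5.50% in the EtOH libraries, sums that carry the zeros of 4 members.

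**Figure D3:**
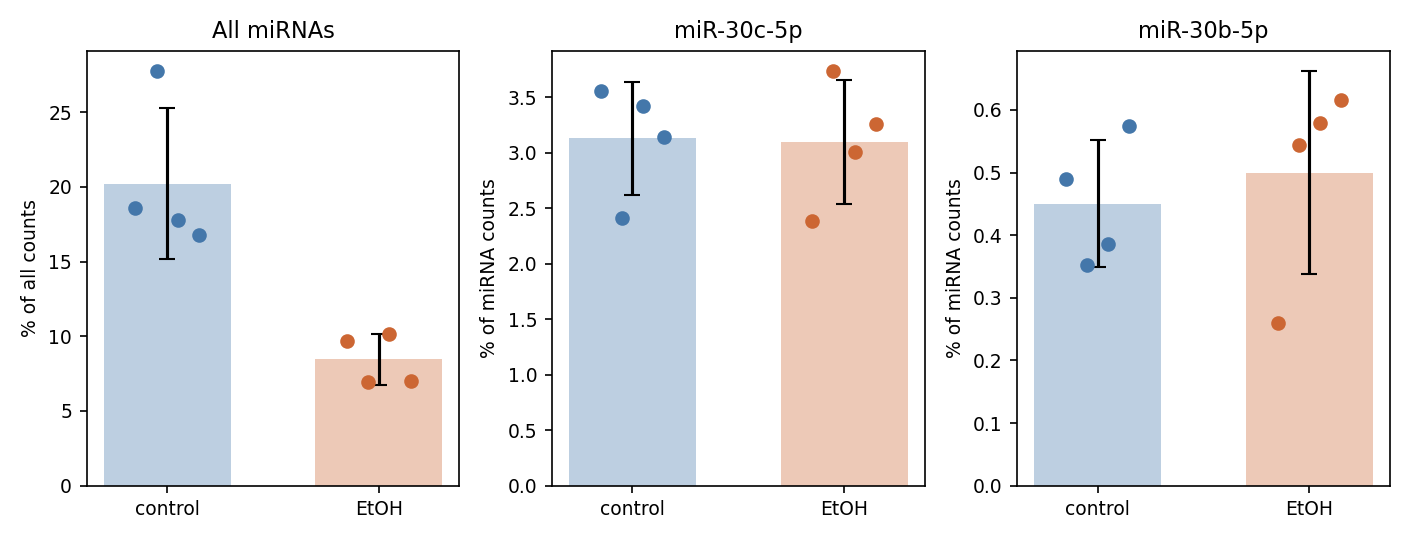
Share of all counts held by miRNA rows (left), and share of miRNA counts, over rows without isolated zeros, held by miR-30c-5p (middle) and miR-30b-5p (right). Points are libraries, bars are means and whiskers the SD (n = 4). All miRNAs fall into separate ranges, 16.8% to 27.7% and 6.96% to 10.2%, while both members overlap between the groups.

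Ratios of counts within a library need no scaling. miR-30b-5p was 0.138, 0.146, 0.113 and 0.183 of miR-30c-5p in controls and 0.109, 0.146, 0.193 and 0.189 in the EtOH libraries, a difference of 0.12 on the log2 scale (two-sided exact permutation p = 0.571, adjusted p = 0.714 over 6 ratios). miR-30d-5p was 0.358 of miR-30c-5p in control 3 and 0.415 and 0.373 in EtOH replicates 2 and 4. With 1 control this ratio, like that of miR-30d-5p to miR-30b-5p (3.17 against 2.85 and 1.97), cannot reach an exact p below 0.3333.

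In the libraries where both arms were above 0, the 5p arm was the more abundant one in both groups. For miR-30a this leaves out controls 1 and 4 and EtOH replicate 3, where miR-30a-5p was listed at 0. Counts of miR-30a-5p were 23.7 and 34.9 times those of miR-30a-3p in controls 2 and 3, and 16.9, 38.2 and 22.7 times in EtOH replicates 1, 2 and 4. miR-30e had a 5p to 3p ratio of 13.1 and 28.6 in controls 1 and 2, and 13.8, 15.8, 34.7 and 35.4 in the EtOH libraries. For miR-30c the ratio of miR-30c-5p to miR-30c-2-3p was 1055, 739.5 and 1303 in controls 1 to 3 and 600, 1572, 836 and 2595 in the EtOH libraries, where the 3p arm rests on 4 to 35 counts and miR-30c-5p has a further hairpin as source. The differences in mean log2 ratio were -0.23, 0.23 and 0.25 for miR-30a, miR-30e and miR-30c, within the spread of the libraries (exact permutation p = 0.7, 0.467 and 0.714, adjusted p = 0.714 each over 6 ratios). The smallest p these numbers of libraries allow is 0.1, 0.0667 and 0.0286.

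**Figure D4:**
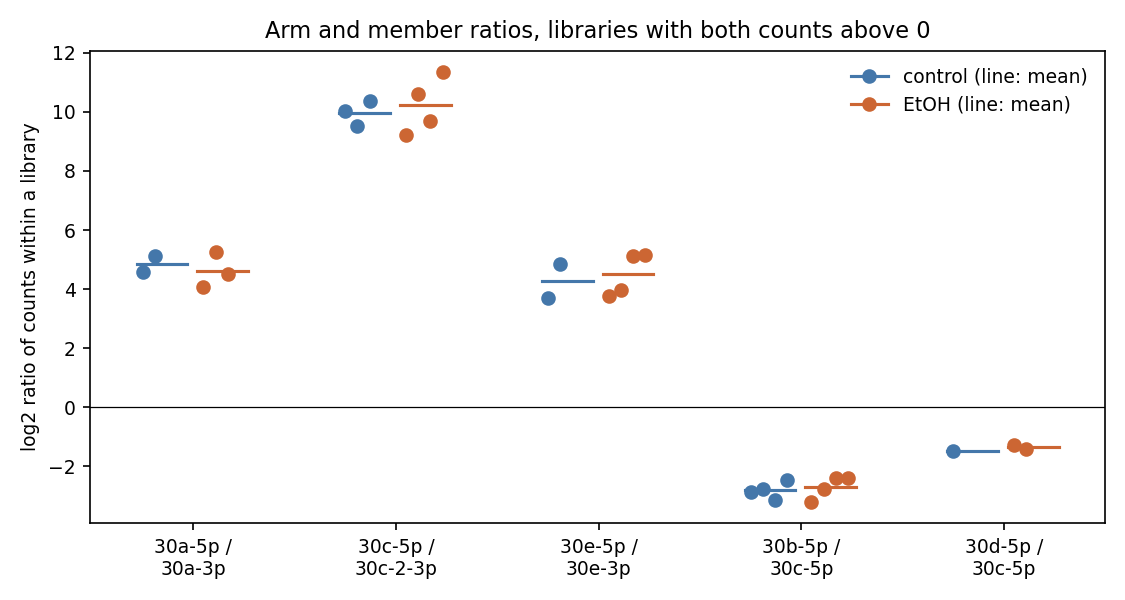
Log2 ratio of the counts of members within a library, for libraries where both are above 0, with points as libraries and lines as group means. The arm ratios lie above 0 and the ratios to miR-30c-5p below 0 in both groups, and the group means differ by 0.12 to 0.25.

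The makeup of the guide arms could be read in the 3 libraries where all 5 were above 0. miR-30c-5p made up 59.1% (Wilson 95% interval 58.6 to 59.6, counting error only) of the 33068 guide arm counts in control 3, 53.1% (52.2 to 54.0) of 11851 in EtOH replicate 2 and 54.1% (53.4 to 54.8) of 19192 in EtOH replicate 4. miR-30d-5p came next with 21.2%, 22.02% and 20.2%. Below it miR-30a-5p and miR-30b-5p changed places, and miR-30e-5p was last in all 3. miR-30a-5p had 8.13%, 12.9% and 8.53%, miR-30b-5p 6.68%, 7.74% and 10.2%, and miR-30e-5p 4.92%, 4.26% and 7.01%. In controls above 0, the CPM ranges of miR-30a-5p, miR-30b-5p and miR-30e-5p overlapped, but such ranges do not compare members within a library. miR-30a-5p had more counts than miR-30e-5p in every library where both were above 0. miR-30b-5p had more than miR-30e-5p in every such library but control 2, with 3784 against 4007 counts. The order was not tested. Where above 0, miR-30a-5p, miR-30b-5p and miR-30e-5p all had more CPM than the highest value of any 3p arm, 65.5.

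Other miRNAs with these seeds were rarely counted. miR-384-5p, which has the guide arm seed, was counted 2 times in all controls and 0 times in the EtOH libraries. miR-30c-1-3p, with the seed of miR-30c-2-3p, had 14 and 7. miR-6958-5p, with that same seed, has no row.

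Among 153 other mature miRNAs with no 0, those whose log2 CPM most resembled the mean profile of miR-30a-3p, miR-30b-5p and miR-30c-5p over the 8 libraries were miR-881-3p, miR-342-3p, miR-423-5p, miR-741-5p and miR-130a-3p, with Pearson r of 0.974, 0.972, 0.971, 0.971 and 0.968. The median r of the 153 was 0.875, and all points share the libraries, their depth and the group difference. miR-342-3p had 149 ± 57.0 and 47.2 ± 11.7 CPM (SD, n = 4 each; log2 fold change -1.66, edgeR adjusted p = 0.0525), and miR-130a-3p 94.2 ± 41.0 and 26.8 ± 3.86. The members correlated with each other at r of 0.932 for miR-30b-5p with miR-30c-5p, and 0.797 and 0.80 for miR-30a-3p with each of them.

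Fragments of genes that make, carry or are reported targets of miR-30 were sparse in these small RNA libraries. Of 16 genes of the miRNA machinery, 10 had a tested feature, and of their 21 exon and intron features 0 passed the edgeR test in either direction and 2 had an unadjusted p below 0.05, both higher. At that p, 17.9% of all features, 36.8% of exon features and 1.73% of intron features were higher. These were an exon of Ago1, an Argonaute gene, with 1.80 ± 1.15 and 4.17 ± 1.65 CPM, and an intron of Tnrc6c, a silencing partner of Argonaute, with 4.24 ± 1.72 and 10.4 ± 8.26 (SD, n = 4 each; edgeR adjusted p = 0.137 and 0.163). The third by p, an exon of Tnrc6b, had 6.41 ± 1.498 and 9.85 ± 4.37 CPM. The median of the 21 was -0.13 on the log2 scale, where exon features had a median of 0.70 and intron features -0.41.

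The host gene Nfyc had 24 to 41 counts over all its exons and introns in controls and 34 to 66 in the EtOH libraries. Its only tested feature, an intron, had 3.19 ± 1.52 and 2.61 ± 0.621 CPM (SD, n = 4 each; log2 fold change -0.22, SE 0.41, edgeR adjusted p = 0.807). Of the 14 reported target genes, 7 had a tested feature, and 0 of their 10 features passed in either direction, with 2 higher at an unadjusted p below 0.05, a share near the 17.9% of all features. An intron of Eed, a Polycomb subunit, had 2.86 ± 0.818 and 8.13 ± 4.39 CPM (adjusted p = 0.0744), and an exon of the receptor gene Notch1 3.31 ± 1.32 and 9.09 ± 8.69 (SD, n = 4 each; edgeR adjusted p = 0.159). An intron of Runx2, a transcription factor gene, was the third by p, at 3.08 ± 1.17 and 1.39 ± 1.09 CPM. The median of the 10 was 0.28. Counts of such fragments do not measure intact messenger RNA.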

How the data were processed

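The table holds whole-number counts per annotated feature, deposited by the authors with no normalization. Per the labels, counting used read 1 alone. The submitters' processing notes name cutadapt, an adapter trimmer, without a version. Aligner, build, annotation and the rule for multiple matches: not given in the sources used here. Sequences and positions are from RefSeq on GRCm38.p6.

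Columns were matched to samples by title and groups taken from the treatment label. Replicate numbers follow accession order and pair nothing. No library pair of a group agreed within sampling noise. Features passing filterByExpr (minimum count 10, minimum total 15) were scaled by TMM. The test was the quasi-likelihood one of edgeR 4.0.16 (R 4.3.3), p-values were adjusted by Benjamini-Hochberg across every feature that entered, and a separate fit held miRNAs alone. The SE is the log2 fold change over the square root of F. DESeq2 1.42.0 and limma 3.58.1 were alternatives. Summed CPM of marker lists use library totals. Exact permutation tests were two-sided.

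Members and lists were chosen with earlier results of these data known. The miRNAs named for likeness are the 5 with the highest r, and each gene list names its 3 features of lowest p. Refits without libraries at an isolated zero, shares without such rows and the threshold of 0.1 were added after the values were seen.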

Additional observations from a re-analysis of the deposited data

Results flagged for a closer look

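In control 3, miR-30d-5p had 1966 CPM while the other 3 controls were listed at 0, which set this library apart from its group. With 3 equal values of 0, any other value stands apart to the same degree, so this restates the isolated zeros of miR-30d-5p. It was the 1 case in 22 groups of 4 values, where chance alone flags about 1 in 20 groups of untied values. The EtOH libraries had 790 and 746 CPM in replicates 2 and 4 and 0 in replicates 1 and 3. The cause was not tested.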

How the results depend on the processing

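The count of members called lower was 0 in the reported edgeR fit, and 2 with DESeq2, limma voom or the EtOH libraries named M alone. It was also 2 without features with isolated zeros, where 4 members were tested, and at a threshold of 0.1. It was 3 with the total count as a covariate, and 0 to 2 with each library left out. Calls among other miRNAs moved too: 1 of 228 miRNA features was lower in the reported fit, 140 of 228 with the covariate and 79 of 198 without features with isolated zeros (14, 1038 and 170 of all features). At the threshold of 0.1, 419 of 10234 features were lower in the reported fit. No member was called lower with median-of-ratios factors, library size or piRNA cluster totals. The same held with all features unfiltered, a minimum mean count of 10 or the EtOH libraries named EM alone. No member was called higher, and 0 were called in the fits within miRNAs, under any alternative run. The median of the tested members was -1.01, 0.25 with limma voom, and -1.45 to -0.70 with each library left out. limma voom gave values above 0 for 4 members with a count of 0: miR-30a-5p (3.07), miR-30c-2-3p (0.25), miR-30e-5p (1.85) and miR-30e-3p (3.35). miR-30a-5p ran from -1.53 to 0.069 with each library left out, the latter without control replicate 2. Library size alone and piRNA cluster totals moved the median of all features from -0.09 to 0.18 and 0.12. Within miRNAs, values near 0 changed sign for miR-30b-5p (-0.073 to 0.25 with a library left out) and miR-30c-2-3p (-0.24 to 0.48). There, miR-30e-3p moved from 0.86 as listed to -0.053 without its isolated zeros. With zeros kept and 0.5 added, the arm ratio differences were 2.94, -1.15 and -0.56 for miR-30a, miR-30c and miR-30e, and those of miR-30d-5p to miR-30b-5p and to miR-30c-5p 3.79 and 3.91, and with a library left out the arm ratio differences ran from -0.55 to 0.048, -0.12 to 0.58 and -0.33 to 0.80. The cause of these shifts, beyond the zeros, was not tested. No paired analysis was possible because the labels carry no replicate numbers that join control and EtOH libraries. miR-30c-2-3p rests on at most 35 counts a library, which limits its precision.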
